A study of Mus musculus with 3 samples.

Results

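Transcripts of 10 genes that move calcium in and out of the cytosol of the heart muscle cell were followed in adult mouse cardiomyocytes (ACMs) kept with vehicle, OSM or IL-6. The genes were picked by their symbols, Ryr2, Trdn, Casq2, Jph2, Cacna1c, Atp2a2, Pln, Sln, Slc8a1 and Camk2d, and all 10 were found among the 56748 genes of the deposited table. The ACMs came from the hearts of wild-type (WT) mice aged 8 to 10 weeks and were held for 16 h in serum-free medium with 0.1% BSA and BDM, a myosin inhibitor that stops contraction, under every condition. OSM (oncostatin M, the mouse protein) and IL-6 (the human protein) are cytokines that signal through the shared receptor subunit gp130, and each was added at 10 ng/mL, while BSA alone served as vehicle. RNA was pooled before sequencing and each condition is 1 library, so a difference below is one between libraries, without a replicate check. The cells are cultured, non-beating and without load, and the human IL-6 was given to mouse cells, which bounds what either group can stand for.

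In each heartbeat, calcium enters through the L-type channel and opens the ryanodine receptor, which empties the sarcoplasmic reticulum (SR) store into the cytosol and so starts contraction. Relaxation follows when the SR calcium pump SERCA2a returns calcium to the store and the sodium-calcium exchanger carries the rest out of the cell. Phospholamban and sarcolipin hold the pump back, junctophilin keeps the channel and the receptor facing each other in a narrow cleft called the dyad, and the kinase CaMKII tunes several of these steps by phosphorylation.

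In the OSM library 2 of these 10 transcripts were lower than with vehicle by more than 2-fold, where 5.43% of all compared genes were called lower. Scaled counts of Ryr2 fell by 65.3% and those of Cacna1c fell by 54.5%, while Slc8a1 was 1.85-fold lower. These are the release channel, the entry channel and the exchanger. The pump gene Atp2a2 was 1.29-fold lower, whereas Pln, its inhibitor, was only 1.06-fold lower and Casq2 1.10-fold lower. In the IL-6 library none of the 10 reached a 2-fold difference from vehicle, where 1.77% of all compared genes were called higher and 1.74% lower. The OSM differences ran alongside gene length in the whole library, and the length trend is given beside each of the 10 genes. Less that trend, the log2 values were -0.37 for Ryr2, -0.17 for Cacna1c and -0.03 for Slc8a1. Those of Atp2a2, Pln and Casq2 were -0.25, -0.30 and -0.36, so that Pln and Casq2 lay lower than Cacna1c and Slc8a1. With the trend removed, none of the 10 was lower by more than 2-fold.

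The counts summed to 24939980 in the vehicle library, 26362446 in the IL-6 library and 30773001 in the OSM library. At these depths a count of 0 allows up to 0.120, 0.114 and 0.0975 CPM (counts scaled to a common library total) in the same order, where the limit is 3 counts. Mitochondrially encoded genes took 17.4% of the counts with vehicle, 16.1% with IL-6 and 13.6% with OSM. The labelled cell type was checked with 8 cardiomyocyte markers, all detected in every library, whose summed level was 10563 FPKM with vehicle, 10968 with IL-6 and 14436 with OSM. FPKM, a fragment count divided by gene length and library size, was deposited beside the counts. The 5 macrophage markers summed to between 1.14 and 1.39 FPKM with C1qa and C1qb at 0 in all libraries, the 5 fibroblast markers to between 0.523 and 0.881, the 5 endothelial markers to between 6.13 and 6.62 and the 5 smooth muscle markers to between 13.4 and 15.8. The 6 skeletal muscle markers summed to between 365 and 521 FPKM, from Ckm and Acta1, which cardiomyocytes also use, and their defining myosins Myh1, Myh2 and Myh4 were at 0. In bulk RNA, fewer cells of a type and less RNA per cell cannot be told apart.

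The shortest coding sequences of the group are those of the pump inhibitors, Pln and Sln. They are shown because the small proteins they encode are relatives that bind the same pump. Read from the GRCm39 genome with the GENCODE M39 annotation, each lies in 1 exon on the plus strand. That of Pln spans chr10:53219960-53220115 and has 156 bases or 52 codons. That of Sln spans chr9:53760757-53760849 and has 93 bases or 31 codons, both counted without the stop codon. The capitals mark their longest shared run, 8 bases that begin at base 94 of Pln and base 25 of Sln and in both cases at the first base of a codon.
Pln: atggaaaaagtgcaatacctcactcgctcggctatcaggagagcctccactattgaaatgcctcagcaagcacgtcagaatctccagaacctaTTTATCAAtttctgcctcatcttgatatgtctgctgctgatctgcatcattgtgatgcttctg
Sln: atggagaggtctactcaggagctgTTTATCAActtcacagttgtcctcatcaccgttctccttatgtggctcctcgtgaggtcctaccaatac

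At the other end, the Ryr2 coding sequence has 14898 bases in 105 exons and that of Cacna1c 6561 bases in 49 exons. Since these were the genes beyond 2-fold with OSM, the 250 bases before the start of their canonical transcripts are given, with every CG dinucleotide in capitals. Both genes lie on the minus strand, Ryr2 with its window at chr13:12121871-12122120 and Cacna1c at chr6:119084937-119085186, and the sequences read 5′ to 3′ along the gene. The Cacna1c window lies inside the longer gene span of the deposited annotation, which reaches to 119173851, so it is the start of 1 of its transcripts.
Ryr2: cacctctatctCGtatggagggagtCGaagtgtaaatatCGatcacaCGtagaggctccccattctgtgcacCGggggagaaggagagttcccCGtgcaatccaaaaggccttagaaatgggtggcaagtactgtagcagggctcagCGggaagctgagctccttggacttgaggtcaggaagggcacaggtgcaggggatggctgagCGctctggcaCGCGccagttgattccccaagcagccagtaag
Cacna1c: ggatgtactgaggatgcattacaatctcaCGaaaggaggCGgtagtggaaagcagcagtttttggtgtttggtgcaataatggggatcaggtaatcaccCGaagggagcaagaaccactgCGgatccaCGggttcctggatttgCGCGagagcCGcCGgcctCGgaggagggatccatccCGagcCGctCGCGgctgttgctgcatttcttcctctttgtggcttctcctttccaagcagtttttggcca

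The Ryr2 window held 10 CG dinucleotides at 56.8% GC and the Cacna1c window 14 at 54.8% GC, beside a median of 53.2% GC over 21770 windows of the same length. Among the members GC content ran from 28.8% before Trdn to 78.0% before Atp2a2, which held 46 CG dinucleotides. OSM signals to STAT factors, whose textbook motif TTCNNNGAA was searched on both strands. It was in 0 of the 10 windows and in 7.70% of all windows. The letters AGATAA of the GATA motif were in 0 of the 10 (9.60% of all windows), the MEF2 motif in 0 of the 10 (0.505%), and TATAAA in those of Pln, Sln and Trdn (11.9% of all windows). These are letter matches in a short window and say nothing about binding.

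Ryr2 (ENSMUSG00000021313), the ryanodine receptor through which the SR store empties, is found on chromosome 13 (minus strand, 11567988 to 12121831) and has a gene_length of 28790 bases, the exon length that the authors deposited. It had 22606 counts (31.0 FPKM) with vehicle, 23555 counts (30.2 FPKM) with IL-6 and 9264 counts (10.8 FPKM) with OSM. The vehicle and IL-6 libraries were close, and OSM alone was low. Against vehicle, the OSM log2 fold change, the ratio of counts scaled by edgeR's TMM factors, was -1.53 with a 95% counting interval of -1.56 to -1.49, and against IL-6 it was -1.49 (-1.52 to -1.45). Such intervals, exact Clopper-Pearson limits on the counts of the pair, reflect counting error and no other source. IL-6 against vehicle gave -0.04 (-0.07 to -0.01).

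A gene was called where the whole interval lay beyond 2-fold, and Ryr2 and Cacna1c were the 2 of 10 members called lower in OSM against vehicle, where 5.43% of the 15537 compared genes were called lower. None of the 10 was called higher, against 3.74% of all genes. Long genes were lower in the OSM library in general. The 301 protein-coding genes of at least 15000 bases lay at -0.86 in the median on the log2 scale, and the 2357 under 3000 bases at 0.37. At the length of Ryr2 a smooth trend through 9444 protein-coding genes lay at -1.16, and Ryr2 was 0.37 lower still, with a log2 fold change less trend of -0.37 (-0.41 to -0.34). Of the long genes, 8.97% were lower than Ryr2. Ttn, the longest of the cardiomyocyte markers, had 18901, 20398 and 7191 counts with vehicle, IL-6 and OSM, while the other markers did not share its direction in FPKM except Myh6 (1100, 1101 and 1071 FPKM). The part of the length trend in the lower Ryr2 value was not tested.

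**Figure D1:**
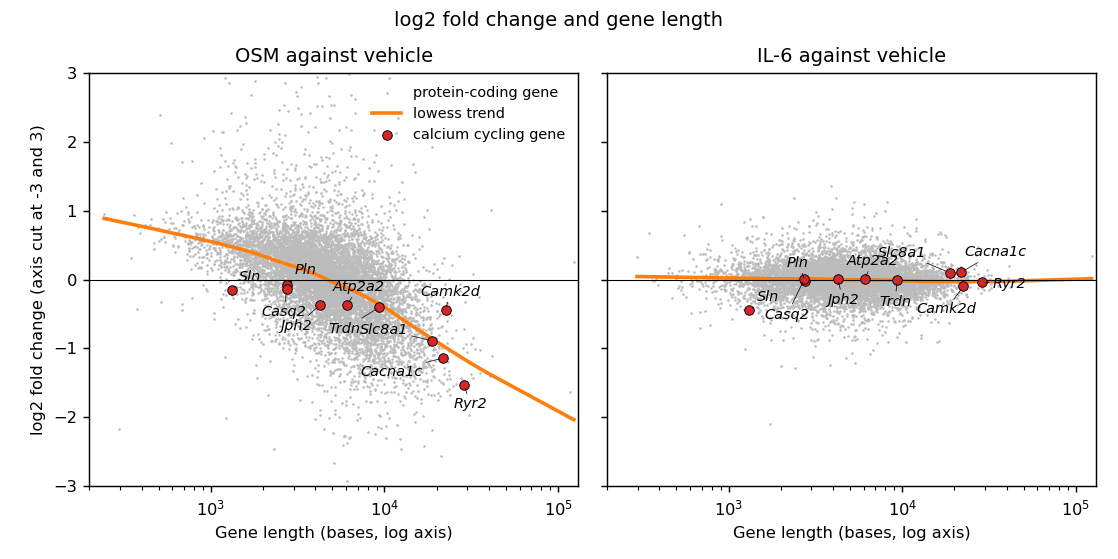
log2 fold change (vertical axis) against the deposited gene length in bases (horizontal log axis) for protein-coding genes (grey points), with the lowess trend (orange line) and the 10 calcium cycling genes (red points), for OSM against vehicle and IL-6 against vehicle. The OSM trend falls with length and Ryr2 lies 0.37 under it, Slc8a1 and Trdn lie near it and Camk2d 0.54 above it, while the IL-6 trend is flat.

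Trdn encodes triadin, which ties the ryanodine receptor to calsequestrin in the SR lumen. The gene (ENSMUSG00000019787, chromosome 10, plus strand, 32956550 to 33352705, gene_length 9352) had 7080 counts (29.9 FPKM) with vehicle, 7513 (29.6 FPKM) with IL-6 and 6333 (22.7 FPKM) with OSM. OSM was the lowest library, at a log2 fold change of -0.40 (-0.45 to -0.35) from vehicle, where the trend at this length was -0.36. The difference of triadin from vehicle thus lay 0.05 from the trend, with an interval less trend of -0.10 to 0.00. IL-6 against vehicle was -0.01 (-0.06 to 0.03), and its sign turned with the scaling. D830005E20Rik, a noncoding gene on the opposite strand that overlaps Trdn, had 246, 232 and 61 counts with vehicle, IL-6 and OSM.

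Casq2, which encodes calsequestrin, the calcium-binding protein of the store, was the second most abundant member per length. On chromosome 3 (ENSMUSG00000027861, plus strand, 101993731 to 102053830, gene_length 2736), it had 15416 counts (223 FPKM) with vehicle, 16624 (224 FPKM) with IL-6 and 16542 (202 FPKM) with OSM. The libraries were within a narrow range. Against vehicle the log2 fold change was -0.14 (-0.17 to -0.11) with OSM and 0.01 (-0.02 to 0.04) with IL-6. Short genes such as this one tended upward with OSM, with a trend of 0.22 at its length, so that Casq2 was 0.36 below it.

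Jph2 encodes junctophilin-2, which spans the dyad. It lies on chromosome 2 (ENSMUSG00000017817, minus strand, 163178162 to 163239913, gene_length 4255) and had 8869 counts (82.4 FPKM) with vehicle, 9588 (83.2 FPKM) with IL-6 and 8116 (63.9 FPKM) with OSM. Only the OSM library was low, at -0.37 (-0.41 to -0.33) from vehicle on the log2 scale. The trend at its length was 0.05, which leaves -0.42 (-0.46 to -0.38), the largest shortfall from the trend after that of Sln. IL-6 against vehicle was 0.01 (-0.03 to 0.05).

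Cacna1c encodes the pore of the L-type calcium channel, through which the trigger calcium enters. The gene covers 609651 bases of chromosome 6 (ENSMUSG00000051331, minus strand, 118564201 to 119173851, gene_length 21864). It had 3849 counts (6.96 FPKM) with vehicle, 4440 (7.49 FPKM) with IL-6 and 2071 (3.17 FPKM) with OSM. The IL-6 library was the highest and the OSM library the lowest. Against vehicle, the log2 fold change was -1.14 (-1.21 to -1.06) with OSM and 0.11 (0.04 to 0.17) with IL-6, and OSM against IL-6 gave -1.24 (-1.32 to -1.17). The OSM trend at its length was -0.97, which leaves -0.17 (-0.25 to -0.09), and 29.6% of the long genes were lower. Dcp1b, a gene on the opposite strand that overlaps Cacna1c, had 85 counts with vehicle, 111 with IL-6 and 173 with OSM, and was thus highest where Cacna1c was lowest.

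Atp2a2, the gene of the SERCA2a pump, was the most abundant member in every library. It lies on chromosome 5 (ENSMUSG00000029467, minus strand, 122591576 to 122640288, gene_length 6081) and had 262296 counts (1705 FPKM) with vehicle, 281237 (1707 FPKM) with IL-6 and 239612 (1319 FPKM) with OSM. It alone made up 1.05% of all counts with vehicle, 1.07% with IL-6 and 0.779% with OSM. In the order of all genes by FPKM it was number 17 with vehicle, 15 with IL-6 and 35 with OSM. IL-6 differed from vehicle by 0.00 (-0.01 to 0.01) on the log2 scale, and OSM was -0.37 (-0.38 to -0.36) from vehicle. The trend at this length was -0.12, which leaves -0.25 (-0.26 to -0.24).

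Pln encodes phospholamban, the main inhibitor of the pump in ventricle. It lies on chromosome 10 (ENSMUSG00000038583, plus strand, 53213763 to 53222083, gene_length 2759) and had 9049 counts (130 FPKM) with vehicle, 9540 (128 FPKM) with IL-6 and 10138 (123 FPKM) with OSM. Of all members it differed least between OSM and vehicle. The log2 fold change was -0.08 (-0.12 to -0.04) with OSM and -0.02 (-0.07 to 0.02) with IL-6, and less the trend of 0.22 at this length the OSM value was -0.30. The opposite-strand gene Cep85l overlaps it and had 681, 712 and 414 counts with vehicle, IL-6 and OSM.

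Sln encodes sarcolipin, a pump inhibitor better known from atrium and skeletal muscle. On chromosome 9 (ENSMUSG00000042045, plus strand, 53757448 to 53761844, gene_length 1318) it had 118 counts (3.54 FPKM) with vehicle, 93 (2.60 FPKM) with IL-6 and 126 (3.20 FPKM) with OSM. These were the lowest counts of the group, and the only ones whose OSM interval included no difference, with -0.15 (-0.52 to 0.23) against vehicle. IL-6 against vehicle gave -0.44 (-0.85 to -0.04). The trend at the length of Sln was 0.48 with OSM, and its value less trend was -0.62. The 6 atrial markers summed to 39.5 FPKM with vehicle, 43.4 with IL-6 and 64.0 with OSM, most of it from Nppa and Myl7, an order that Sln did not follow.

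Slc8a1, the sodium-calcium exchanger that carries calcium out of the cell, lies on chromosome 17 (ENSMUSG00000054640, minus strand, 81680534 to 82045806, gene_length 18807). It had 6792 counts (14.3 FPKM) with vehicle, 7786 (15.3 FPKM) with IL-6 and 4339 (7.72 FPKM) with OSM. As with Cacna1c, IL-6 was the highest library and OSM the lowest. The OSM log2 fold change from vehicle was -0.89 (-0.94 to -0.83) and the IL-6 one 0.10 (0.05 to 0.14). OSM against IL-6 was -0.99 (-1.04 to -0.93), an interval that spans the 2-fold line, so Slc8a1 was not called, though scaled by total counts it was (-1.07). The trend at its length was -0.86, and the value less trend was -0.03 (-0.08 to 0.03).

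Camk2d encodes the main CaMKII subunit of the heart. Its gene on chromosome 3 (ENSMUSG00000053819, plus strand, 126389951 to 126639975, gene_length 22493) had 4186 counts (7.36 FPKM) with vehicle, 4186 (6.87 FPKM) with IL-6 and 3641 (5.42 FPKM) with OSM. Camk2d was as long as Cacna1c in this annotation and differed far less. Its OSM log2 fold change was -0.44 (-0.51 to -0.38), where the trend was -0.99, which leaves 0.54 (0.48 to 0.61), the one member above the trend. Of the long genes, 74.8% were lower than Camk2d. IL-6 against vehicle was -0.10 (-0.16 to -0.04).

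**Figure D2:**
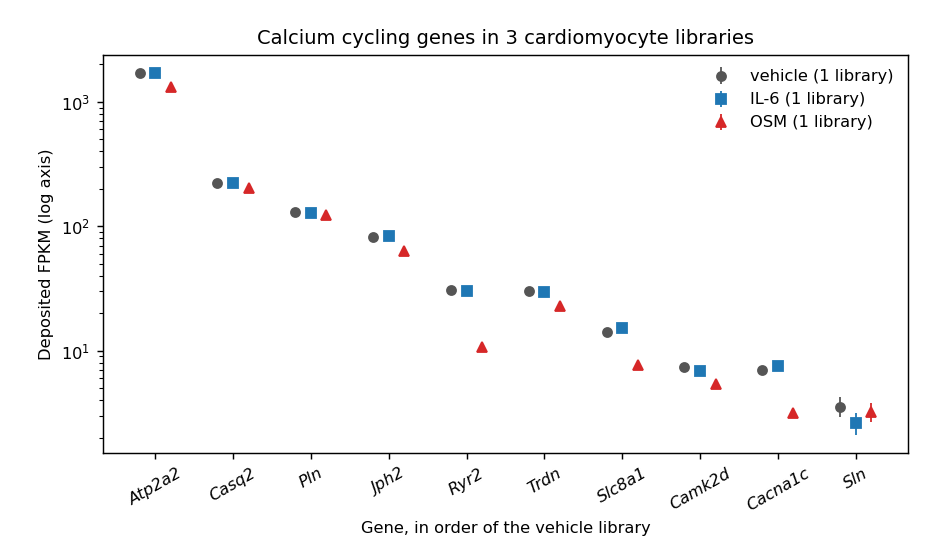
Deposited FPKM (log axis) of the 10 genes in the vehicle, IL-6 and OSM libraries, 1 library each, with 95% counting intervals that are mostly smaller than the symbols. Vehicle and IL-6 lie close for every gene but Sln, and the OSM symbols of Ryr2, Slc8a1 and Cacna1c stand apart below.

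Per length, the members spanned a wide range, from Atp2a2 down to Sln 482-fold lower with vehicle. In the vehicle library the order in FPKM was Atp2a2, Casq2, Pln, Jph2, Ryr2, Trdn, Slc8a1, Camk2d, Cacna1c and Sln, and neighbours differed beyond their counting intervals except Camk2d and Cacna1c. With IL-6, Cacna1c stood before Camk2d, and the intervals of Ryr2 and Trdn overlapped. With OSM, Trdn stood before Ryr2 and Cacna1c came last, with an interval that overlapped that of Sln. This order depends on the length used. Slc8a1 has a gene_length of 18807 bases but a canonical transcript of 3265 in GENCODE M39, and per canonical length it was number 5 with vehicle, 3 with IL-6 and 5 with OSM. For Ryr2 the canonical length is 16853, for Camk2d 7359 and for Cacna1c 6663.

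Across the 10 members the median log2 fold change of OSM against vehicle was -0.39, beside 0.00 over all compared genes. The value was below 0 for all 10 and the whole interval for 9 of them, the exception being Sln. Over all genes 33.1% had an interval below 0, a share not matched for counts, and intervals narrow as counts rise. Together the members took 1.36% of the counts with vehicle, 1.38% with IL-6 and 0.975% with OSM. Less the length trend, the median was -0.27 and 9 of the 10 point values remained below 0, with Camk2d above. The summed FPKM of the cardiomyocyte markers was higher with OSM, but no length trend was taken off that sum. Its largest parts, Actc1, Myl2, Myl3 and Tnni3, are short genes of 1618 to 2063 bases, where the OSM trend was 0.33 to 0.42. Ttn and Myh6 had lower FPKM with OSM than with vehicle. The part of cell composition in these values was not tested.

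Between IL-6 and vehicle the members were close. None of the 10 was called higher or lower, where 1.77% and 1.74% of the 15472 compared genes were called in those directions. The median was -0.01, and the values ran from -0.44 (Sln) to 0.11 (Cacna1c). The intervals of Slc8a1 and Cacna1c lay above 0 (19.6% of all genes did), and those of Ryr2, Camk2d and Sln below it (19.1%). Here too the shares of all genes are not matched for counts. No length trend of the OSM kind was seen, with medians of -0.02 for long and 0.01 for short genes. Since both cytokines are set against 1 vehicle library, their fold changes share its error.

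OSM against IL-6, the comparison that leaves vehicle out, again had Ryr2 and Cacna1c lower beyond 2-fold, 2 of 10 where 5.42% of the 15544 compared genes were lower. None was higher, against 4.24% of all genes. The median of the members was -0.38. The whole interval lay below 0 for 9 of the 10, where it did for 33.2% of all genes, a share not matched for counts. Sln had 0.30 (-0.10 to 0.70). This comparison shares the OSM library with the first.

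**Figure D3:**
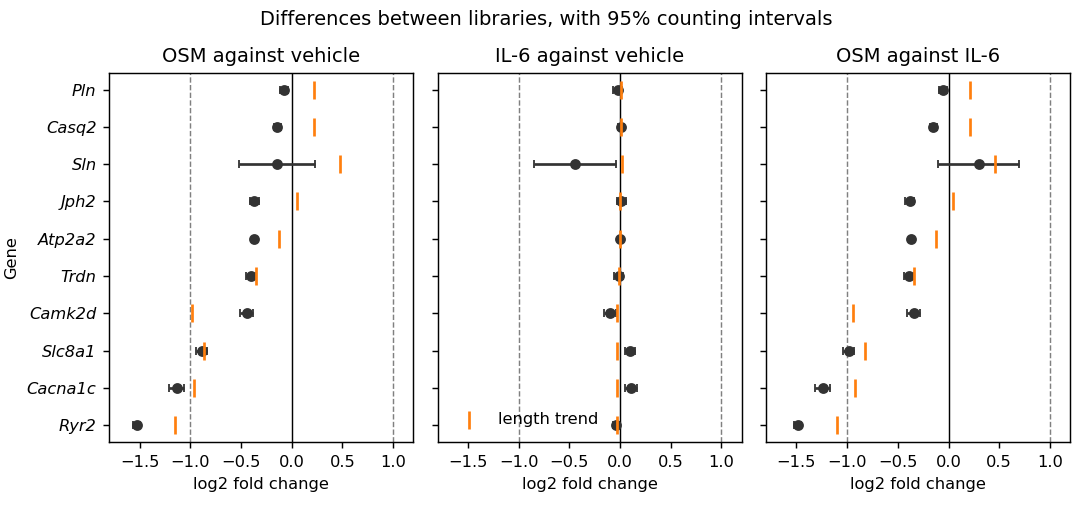
log2 fold change (horizontal axis) of each gene in the 3 comparisons of libraries, as points with 95% counting intervals, with the length trend at the gene's length as an orange bar and the 2-fold limits dashed. With OSM, Ryr2 and Cacna1c lie wholly beyond the limit, and Pln and Casq2 lie near 0 but left of their bars.

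Ratios between members are free of the scaling between libraries. Per gene_length, the ratio of Pln to Atp2a2 was 0.0760 with vehicle, 0.0748 with IL-6 and 0.0933 with OSM. The inhibitor thus stood 1.23-fold (1.19 to 1.26) higher to the pump with OSM than with vehicle. The Sln to Atp2a2 ratio was 0.00208, 0.00153 and 0.00243 in the same order, and its OSM to vehicle quotient of 1.17 (0.909 to 1.5) had an interval that included 1. The balance of exchanger and pump, Slc8a1 to Atp2a2, was 0.00837 with vehicle, 0.00895 with IL-6 and 0.00586 with OSM, 0.699 (0.673 to 0.727) of its vehicle value. These directions turned once the length trend of both genes was taken off, to OSM to vehicle quotients of 0.969 (0.942 to 0.998) for Pln to Atp2a2 and 1.17 (1.12 to 1.21) for Slc8a1 to Atp2a2, while that of Sln to Atp2a2 became 0.774 (0.602 to 0.995).

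Around the release channel, the ratio of Casq2 to Ryr2 was 7.18 with vehicle, 7.43 with IL-6 and 18.8 with OSM, 2.62-fold (2.53 to 2.71) the vehicle value. That of Trdn to Ryr2 was 0.964, 0.982 and 2.10, 2.18-fold (2.09 to 2.28) the vehicle value. Both ratios to the channel were highest in the OSM library. Camk2d to Ryr2 went from 0.237 with vehicle and 0.227 with IL-6 to 0.503 with OSM, and Jph2 to Cacna1c from 11.8 and 11.1 to 20.1. In all of these ratios but Camk2d to Ryr2 the genes also differ in gene_length by more than 2-fold, and less the trend the OSM to vehicle quotient of Casq2 to Ryr2 was 1.01 (0.976 to 1.04). That of Jph2 to Cacna1c turned from 1.70 to 0.842 (0.792 to 0.895). The quotients of Trdn to Ryr2, at 1.25, and of Camk2d to Ryr2, at 1.89 (1.79 to 1.98), stayed above 1.

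**Figure D4:**
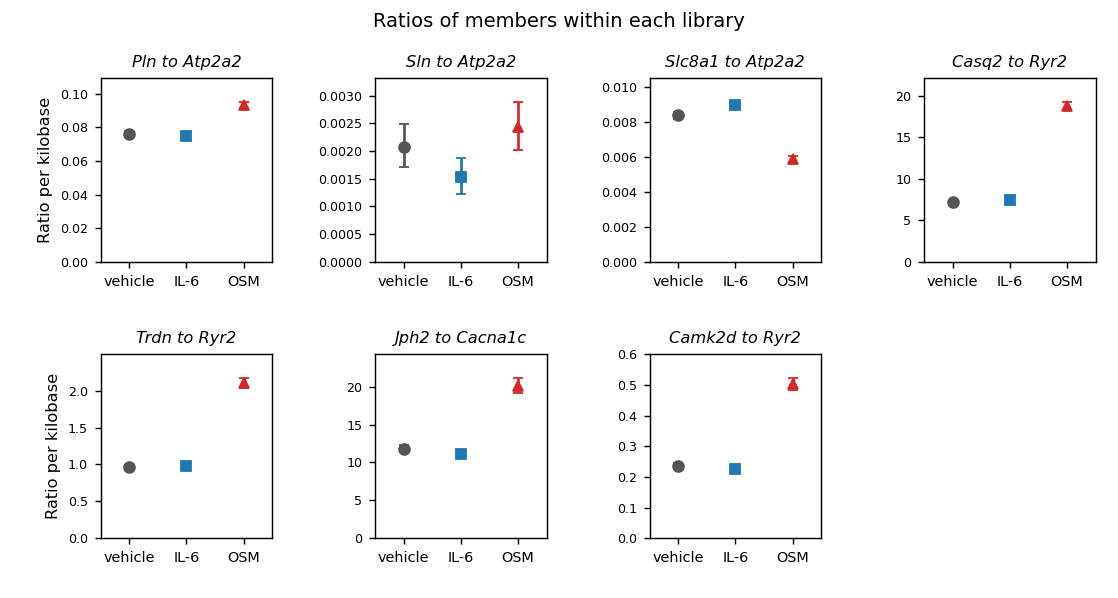
Ratio per kilobase of gene_length (vertical axis from 0) of 7 pairs of genes in the vehicle, IL-6 and OSM libraries, with 95% counting intervals. The ratios to Ryr2 and Cacna1c are highest with OSM, and that of Slc8a1 to Atp2a2 is lowest, while less the length trend the quotients of Pln to Atp2a2, Slc8a1 to Atp2a2 and Jph2 to Cacna1c turn direction.

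The rest of the pathway was read from 7 lists of 96 further genes. Of the 84 with enough counts in OSM and vehicle, 4 were called higher (4.76%) and 8 lower (9.52%), beside the 3.74% and 5.43% of all genes. Their median log2 fold change was -0.23, and -0.08 less the length trend. With the trend removed, 4 were higher, the same genes, and 4 were lower, of which 3 (Ppp1r3a, Jph1 and Cacnb4) were among the 8 and Jsrp1 was not. For IL-6 against vehicle, 86 were compared, 1 was higher (1.16%) and 2 were lower (2.33%), beside 1.77% and 1.74% of all genes. The median of the 86 was -0.03. OSM against IL-6 had 4 higher (4.65%) and 10 lower (11.6%) of 86, beside 4.24% and 5.42% of all genes, with a median of -0.17. With the trend removed, 4 were higher and 3 lower in that comparison. Values of single list genes below keep the trend unless given less trend.

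Of the SR release and lumen list, 17 of 20 genes were compared and 2 were lower with OSM, Akap6 and Ryr3, beside 5.43% of all genes. Akap6, which encodes an anchor for protein kinase A, fell from 4075 counts with vehicle (4375 with IL-6) to 2253, a log2 fold change of -1.10 (-1.17 to -1.02) and of -0.40 less trend. Ryr3, another ryanodine receptor gene, had 19, 8 and 3 counts with vehicle, IL-6 and OSM, -2.90 (-5.30 to -1.14), and Ryr1, the skeletal muscle receptor, had 7, 1 and 2. Ryr2 was thus the only ryanodine receptor gene with more than 19 counts in any library. Calr and Hrc, calcium-binding proteins of the lumen and the most abundant genes of the list, had 0.25 (0.23 to 0.27) and 0.21 (0.18 to 0.24). Less trend these values were 0.05 and -0.03. Fkbp1a, which encodes a protein that binds ryanodine receptors, had 4727, 5537 and 8435 counts, 0.59 (0.54 to 0.65) and 0.50 less trend. Its relative Fkbp1b had 4, 4 and 0. Itpr2, an IP3 receptor gene, was called lower only between OSM and IL-6 (45 and 139 counts, -1.77). The skeletal muscle calsequestrin Casq1 had 15, 24 and 17 counts.

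Of the SR uptake list 5 of 6 genes were compared. Ppp1r3a, which encodes a subunit that targets protein phosphatase 1, had 3451 counts with vehicle, 3140 with IL-6 and 997 with OSM. OSM was 4.09-fold lower than vehicle (log2 -2.03, interval -2.14 to -1.93), and with a gene length of 6965 bases its value less trend was -1.85. The other pump genes were scarce, Atp2a1 with 11, 8 and 2 counts and Atp2a3 with 5, 12 and 0. For OSM against IL-6, the upper end of the log2 interval of Atp2a3 was -1.62. Mrln, a gene for a small pump inhibitor of skeletal muscle, had 16 counts with vehicle and 2 with IL-6, a log2 ratio of -3.10 (-6.26 to -1.01), and 9 with OSM. The second most abundant of the list, Strit1, a gene for a micropeptide that eases pump inhibition, had 49, 90 and 88 counts.

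The list of channel subunits and regulators held 14 compared genes of 18, with a median of -0.69 (-0.53 less trend) with OSM. Of the 14, 1 was higher and 3 were lower, beside 3.74% and 5.43% of all genes. Rrad, which encodes a small GTPase that restrains the L-type channel, had 6044 counts with vehicle, 6352 with IL-6 and 36438 with OSM, 5.10-fold higher than vehicle. Of the genes for partners of the pore, 3 were called lower. Cacna2d1 (4875, 5191 and 2728 counts), the gene of the alpha2delta subunit, had -1.08 (-1.15 to -1.01) and -0.52 less trend, and Cacnb2 (578, 549 and 260 counts), a beta subunit gene, had -1.39 (-1.61 to -1.18) and -0.78 less trend, so that neither stayed beyond 2-fold without the trend. Cacnb4, another beta subunit gene, had 12 counts with vehicle and 0 in both other libraries. Against vehicle, the upper end of its log2 interval was -1.72 with OSM and -1.57 with IL-6. Other pore genes were rarer than Cacna1c, with 244, 207 and 238 counts for the skeletal channel gene Cacna1s and 7, 17 and 2 for Cacna1d, which was called lower between OSM and IL-6.

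For extrusion, the sodium pump and store-operated entry, 13 of 16 genes were compared and none was called with OSM. Of all genes 3.74% were called higher and 5.43% lower, and the median of the 13 was 0.07. Fxyd1, which encodes the regulator phospholemman, had 4282, 4248 and 7274 counts with vehicle, IL-6 and OSM, a log2 value of 0.52 (0.47 to 0.58). The other exchanger genes were near the limit of detection, Slc8a2 with 26, 24 and 25 counts and Slc8a3 with 2, 0 and 13. For OSM against IL-6, the lower end of the log2 interval of Slc8a3 was 1.47.

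Of the dyad and T-tubule list, 6 of 7 genes were compared. Cav3, which encodes the caveolin of muscle membranes, had 594 counts with vehicle, 730 with IL-6 and 3083 with OSM, 4.39-fold higher than vehicle. Jph1, the relative of Jph2, had 1290, 1347 and 668 counts, a log2 fold change of -1.19 (-1.33 to -1.06), of which the length trend at 4998 bases gave -0.03. Jph1 thus stood lower than Jph2 at nearly the same length. Jph3 had 3, 3 and 6 counts and Jph4 had 34, 37 and 39. Cmya5 (7327, 8331 and 5061 counts), which encodes a protein of the dyad, had -0.77 (-0.83 to -0.72).

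In the mitochondrial calcium list all 8 genes were compared with OSM. Mcub, the gene of an inhibitory uniporter subunit, was the one called, where 3.74% of all genes were called higher. It had 0 counts with vehicle, 6 with IL-6 and 14 with OSM. For OSM against vehicle, the lower end of its log2 interval was 1.49. Smdt1, which encodes a regulator of the uniporter, had 0.69 (0.62 to 0.76), and Mcu, the pore, 0.31 (0.17 to 0.46). Micu2, a gate-keeping subunit, had -0.14 (-0.21 to -0.07).

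Among the 21 kinase, phosphatase and cAMP genes, Rcan1 was higher and Pde3a lower with OSM, beside 3.74% and 5.43% of all genes. Rcan1, which encodes an inhibitor of the phosphatase calcineurin, had 16124 counts with vehicle, 15845 with IL-6 and 125047 with OSM, 6.56-fold higher than vehicle. Its relative Rcan2 had 16207, 17845 and 19308, a log2 fold change of 0.01 (-0.02 to 0.04). Pde3a, the gene of a cAMP phosphodiesterase, had 1425, 1284 and 598 counts, -1.49 (-1.63 to -1.36), and -0.91 less trend. The other CaMKII genes were Camk2a with 1981, 2300 and 1340 counts, -0.81 (-0.91 to -0.70), Camk2b with 269, 316 and 291, -0.13 (-0.37 to 0.12), and Camk2g with 1823, 1923 and 1756, -0.30 (-0.39 to -0.20). None of them was called.

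**Figure D5:**
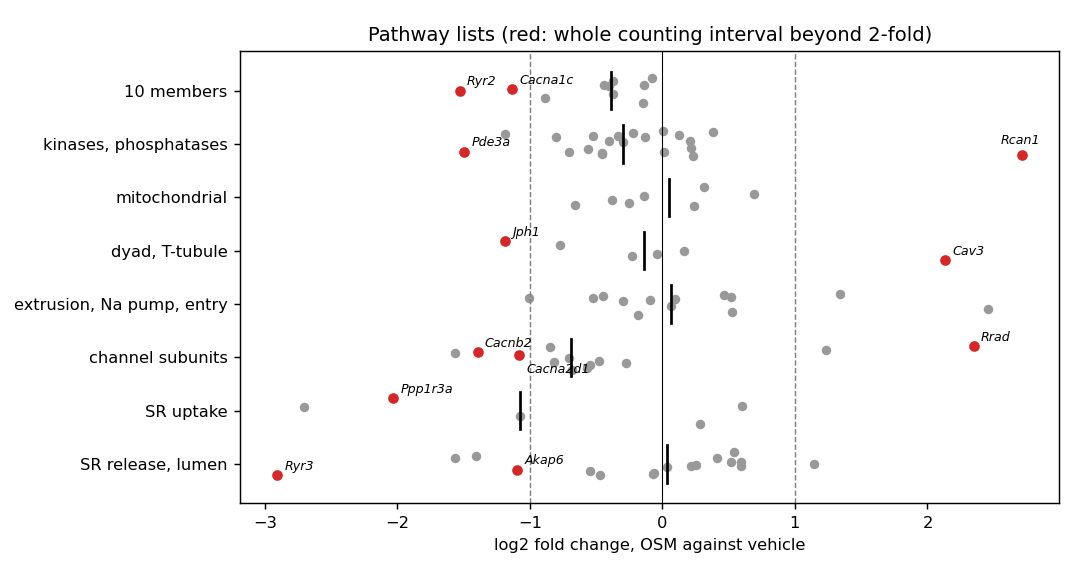
log2 fold change of OSM against vehicle (horizontal axis) for the genes of the 7 pathway lists and the 10 members (rows), with list medians as black bars, 2-fold limits dashed and called genes in red. Cacnb4 and Mcub, with 0 counts in 1 of these libraries, are counted in the medians but not drawn, and Rcan1, Rrad and Cav3 are the called genes drawn on the right, beside the uncalled Slc8a3 with 2 and 13 counts.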

How the data were processed

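RNAseq of 3 pooled RNA samples, 1 library per condition, was analysed. The authors deposited whole-number counts per gene, without normalization. The authors also deposited FPKM values, each equal to the count divided by gene_length and 1 constant per library. The submitters' processing notes name fastp, HISAT2 2.2.1, featureCounts 2.0.6, edgeR 4.0.16 and mm39 (GRCm39), and the paper's methods give other versions for some of these. The sources used here do not give the strand setting of the counting, so opposite-strand overlaps are uncertain. Conditions were taken from the sample labels.

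Counts were scaled per pair of libraries by TMM (edgeR 4.0.16, R 4.3.3). A gene was compared if the pair held 10 or more counts of it, with exact Clopper-Pearson 95% intervals (scipy 1.17.1), and were called where the whole interval passed 2-fold. No P-value was computed, since 1 library per condition gives no replicate spread. Because PCR copies carried no molecular identifier, intervals understate the error. The length trend was a lowess fit (fraction 0.3, statsmodels 0.14.6) of the log2 fold change on log2 gene_length over protein-coding genes whose mean count was 100 or more. The script was tested on simulated data. Alternatives were DESeq2 1.42.0 factors, total counts, 3-library, protein-coding and non-mitochondrial TMM, the deposited FPKM, thinning, other count minimums, a 1.5-fold limit, point estimates and removal of the length trend. The gene sequences came from GRCm39 with GENCODE M39, with 21770 upstream windows.

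The members and the gene lists were chosen with earlier results of these data known. Named were all members, called genes of the lists, close relatives of members, the 2 genes of each list with the highest mean FPKM, and genes overlapping a member. Not every gene named by this rule is reported here, and others (Fkbp1a, Fkbp1b, Mcu, Fxyd1 and Ttn) were named after their values were seen.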

Additional observations from a re-analysis of the deposited data

Results flagged for a closer look

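Slc8a1 and Cacna1c differed from vehicle in opposite directions in the OSM and IL-6 libraries. For Slc8a1 the log2 fold change was -0.89 with OSM and 0.10 with IL-6, and for Cacna1c it was -1.14 with OSM and 0.11 with IL-6. The difference was not tested, as each condition is 1 library, and the values share the vehicle library.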

How the results depend on the processing

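With the length trend removed, the members called lower went from 2 to 0 in both comparisons of the OSM library. The other alternatives left the counts of called members within 1.5 times the reported ones in 66 of 66 checks. Many of these checks set 0 beside 0, since no member was called higher in any comparison or lower for IL-6 against vehicle. The rule also passes a change from 2 to 3. With a 1.5-fold limit Slc8a1 joined Ryr2 and Cacna1c, making 3 lower in each OSM comparison, and total counts made 3 lower in OSM against IL-6. Of the members' single log2 values over all alternatives, 40 moved beyond their counting interval and 200 did not, and none of a called member changed sign. Removal of the trend, here chosen after seeing the data, took the pathway genes called lower from 8 to 4 for OSM against vehicle and from 10 to 3 for OSM against IL-6. It turned the OSM to vehicle quotients of Pln to Atp2a2 (0.969), Slc8a1 to Atp2a2 (1.17) and Jph2 to Cacna1c (0.842). Scaling by total counts moved the log2 fold changes of OSM against vehicle by -0.06, of IL-6 against vehicle by 0.02 and of OSM against IL-6 by -0.08. Ratios per canonical transcript length, chosen after seeing the data, all differed from the reported levels, with vehicle values of 0.0373 for Pln to Atp2a2, 0.0352 for Slc8a1 to Atp2a2 and 2.08 for Casq2 to Ryr2. No paired analysis was possible because each condition has 1 library. Depth limits Sln most, with 93 to 126 counts, and genes at or under 3 counts.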
